A study of Solanum lycopersicum with 8 samples.

Results

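HsfA2 (Solyc08g062960) of tomato (Solanum lycopersicum) is the heat stress transcription factor that the study set out to suppress. It is 1 of 29345 genes listed in each deposited table, and it was selected by its identifier with the version suffix removed. It was present in all 8 tables, which come from leaf and anther, A2AS and wild type (WT), heat and control. A2AS denotes transgenic tomato in which HsfA2 was to be suppressed. The transgene's promoter, the number of lines and the number of plants in a library were not stated. All plants were of cultivar Moneymaker, 8 weeks old and grown at 24 °C by day (16 h) and 20 °C by night (8 h). The heat groups (A2AS leaf, WT leaf, A2AS anther and WT anther) spent 1 h at 39 °C and then 1.5 h of recovery at 24 °C. A chamber light of 120 µmol m⁻² s⁻¹ is given for the heat groups and no light level for the control groups. A part of light in the heat comparisons thus cannot be told apart. The control groups (A2AS leaf, WT leaf, A2AS anther and WT anther) carry the control label, with their handling not described. Leaves were young, and anthers of several developmental stages were taken. Each of the 8 groups was 1 library, so no single pair of libraries has a replicate check.

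Heat stress transcription factors (Hsf proteins) bind heat shock elements in promoters and switch on genes of molecular chaperones, which keep other proteins folded during heat. In tomato, HsfA1a is known as the master regulator that starts the response, and HsfA2 is a heat-induced factor that accumulates during stress and recovery and forms strongly activating complexes with HsfA1a. HsfA2 is also known to be expressed in developing anthers, where male fertility is sensitive to heat.

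The assay, massive analysis of cDNA ends, reads 1 tag near the 3′ end of each polyadenylated transcript. Levels are tags per 1000000 tags of the library (CPM) with no gene length term, and each transcript gives 1 tag whatever its length, so levels of different genes are set side by side on this scale. The libraries held 11534512 to 14764187 reads, except that of heated A2AS leaf, which held 6243965. The HsfA2 value corresponded to a whole number of reads in 8 of 8 libraries. The leaf marker, 3 genes of the small subunit of Rubisco, the enzyme that fixes carbon, summed to 1967 to 2776 CPM in the anther libraries and 13678 to 38082 CPM in the leaf libraries. The 4 anther markers LAT52, MS10, MS32 and AMS summed to 322 to 536 CPM in anthers and 3.47 to 5.85 CPM in leaf, so the marker levels followed the tissue labels. Fewer cells expressing a gene and less RNA per cell cannot be told apart in such bulk libraries. Brackets hold 95% exact intervals for counting error only.

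HsfA2 spanned a wide range over the libraries. In leaf it stood at 2.72 CPM (1.59 to 4.36) in heated A2AS and 21.7 CPM (19.3 to 24.3) in heated WT. In control leaf it stood at 2.25 CPM (1.53 to 3.19) in A2AS and 10.3 CPM (8.55 to 12.3) in WT. Both A2AS leaf libraries were thus below both WT leaf libraries. In heated anthers it stood at 39.3 CPM (36.1 to 42.7) in the library labelled A2AS and 22.3 CPM (19.9 to 24.9) in WT. In control anthers it stood at 1.08 CPM (0.619 to 1.76) in A2AS and 1.93 CPM (1.24 to 2.88) in WT. These values rest on 573 and 306 reads in the heated anther libraries, but on 16 to 31 reads in both control anther libraries and both A2AS leaf libraries (17 reads in heated A2AS leaf).

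**Figure D1:**
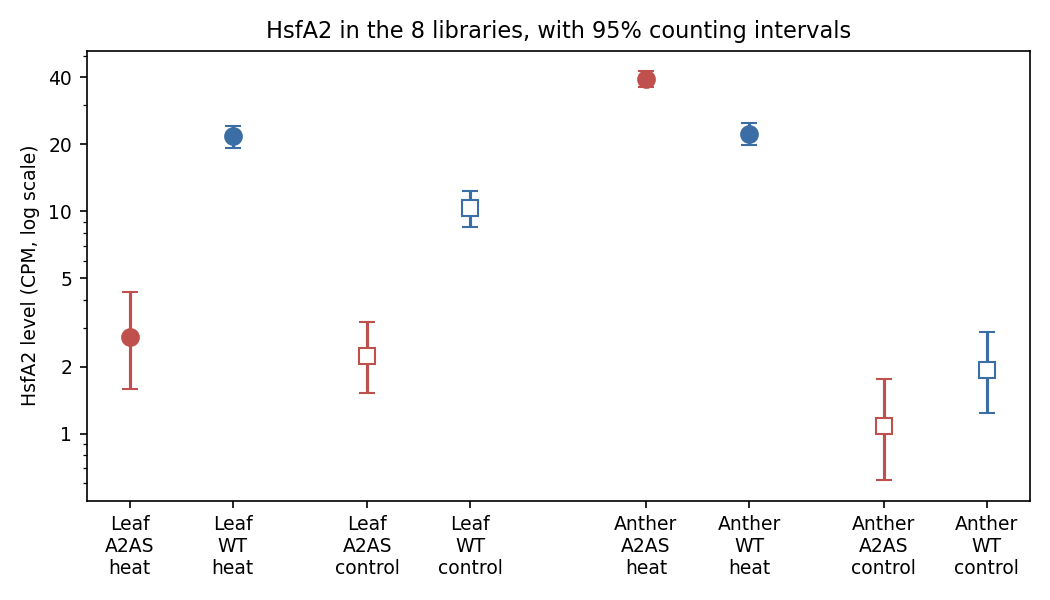
HsfA2 level in CPM (log scale) in each of the 8 libraries, 1 point per library with its 95% exact counting interval. Red marks A2AS, blue WT, filled circles heat and open squares control. The highest point is the heated anther library labelled A2AS at 39.3 CPM, and the A2AS leaf points at 2.72 and 2.25 CPM lie below the WT leaf points at 21.7 and 10.3 CPM.

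Ordered from high to low, the heated anther library labelled A2AS came first, at 1.76-fold (1.53 to 2.03) the next level. Heated WT anther and heated WT leaf followed and did not differ beyond counting error (1.03-fold, 0.873 to 1.21). Heated WT leaf was 2.11-fold (1.70 to 2.63) above control WT leaf, and control WT leaf was 3.79-fold (2.27 to 6.72) above heated A2AS leaf. The last 4 libraries formed a low group in which no neighbour differed beyond counting error. In that group heated A2AS leaf was followed by control A2AS leaf, control WT anther and control A2AS anther. Their neighbouring ratios were 1.21 (0.629 to 2.26), 1.16 (0.660 to 2.07) and 1.78 (0.909 to 3.59). Libraries further apart in the group could differ, as control A2AS anther was at 0.482 (0.246 to 0.909) of control A2AS leaf. HsfA2 was higher than 88.0% of listed genes in the heated anther library labelled A2AS and 80.6% in both heated WT libraries. The share was 55.8% in heated A2AS leaf, 54.4% in control A2AS leaf and 43.1% in control A2AS anther, against 71.3% in control WT leaf and 49.0% in control WT anther.

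The comparison of A2AS with WT checks the gene that the transgene was meant to reduce. In leaf HsfA2 was lower in A2AS, at 0.125 (0.0721 to 0.204) of the WT level after heat and 0.218 (0.142 to 0.326) in control plants. The control ratio uses control WT leaf, where small heat shock protein genes summed to 972 CPM, against 153 to 194 CPM in the other control libraries. In control anthers HsfA2 was at 0.560 (0.278 to 1.10) of the WT level, an interval that includes 1. In heated anthers it was 1.76-fold (1.53 to 2.03) higher in the library labelled A2AS than in WT. That level goes against the label, and every direction drawn from this library carries that limit. Whether tags were assigned by strand is not stated in the sources used here, so sense HsfA2 transcripts and antisense or transgene transcripts holding the same 3′ sequence cannot be told apart.

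HsfA2 lay near the edge of all genes in both leaf comparisons. In heated leaf, 14 of 8726 other genes whose pair averaged 10 CPM or more had a lower log2 ratio of A2AS to WT than HsfA2 (0.160%). In control leaf 49 of 8331 such genes did (0.588%), where HsfA2 itself averaged 6.28 CPM. In heated anthers it was near the opposite edge, with 116 of 9475 genes above it (1.22%), or 1.94% when the pair average had to reach only 2 CPM. In control anthers, where HsfA2 averaged 1.51 CPM, 3.54% of 9213 genes had a lower ratio.

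**Figure D2:**
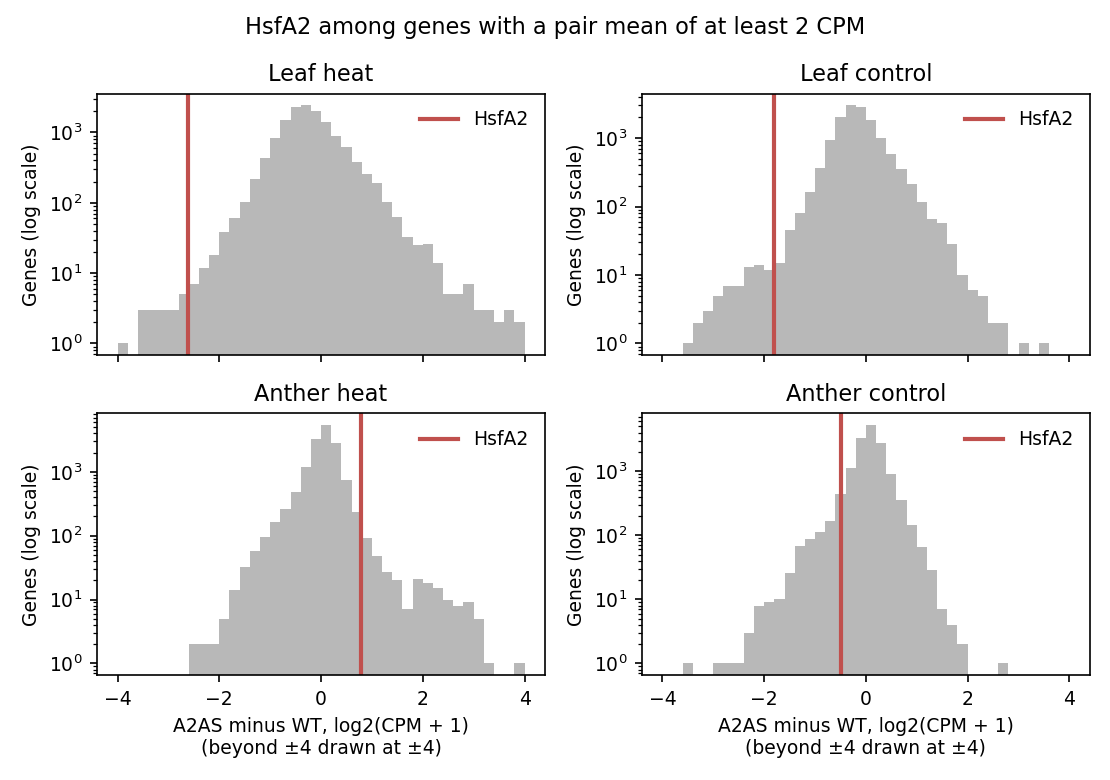
Number of genes (log scale) by their log2(CPM + 1) difference of A2AS minus WT in each tissue and treatment, for genes whose pair averaged 2 CPM or more, with values beyond ±4 drawn at ±4. The red line is HsfA2, which lies at −2.61 in heated leaf, −1.80 in control leaf, 0.79 in heated anthers and −0.49 in control anthers.

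The Rubisco transcripts differed with genotype in leaf beside HsfA2. Their sum was 31992 CPM in heated A2AS leaf and 13678 CPM in heated WT leaf, and 38082 CPM in control A2AS leaf and 23593 CPM in control WT leaf. With the 100 most abundant genes left out of the total, HsfA2 in A2AS leaf was at 0.144 of WT after heat and 0.238 of WT in control plants, so the leaf ratios stayed within their counting intervals.

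Over the 4 genotype pairs limma, a linear model that pools variance information over genes, gave an A2AS minus WT difference of −1.03 ± 0.48 on the log2(CPM + 1) scale (SE; adjusted p = 0.597), with A2AS the lower library in 3 of 4 pairs. It called 0 of 15220 genes (0%), and 1313 had an unadjusted p under 0.05. Without the heated anther pair the HsfA2 difference was −1.63 ± 0.33 (limma adjusted p = 0.134). The signed value of A2AS minus WT, which was negative in both leaf pairs, was higher in anther than in leaf by 2.35 ± 0.48 log2 (limma adjusted p = 0.0564), which did not pass the threshold of 0.05, where 464 of 15220 genes (3.05%) did, 306 with the higher signed value in anther and 158 with the higher one in leaf (112 and 462 under median-ratio scaling, where HsfA2 was at 2.10). The HsfA2 value did not pass in the 8 alternatives that kept all pairs, where the limma adjusted p was 0.0513 to 0.295. With 1 pair left out, a single pair of its tissue remained and was fitted exactly, so only effect sizes are given. These were 3.0 without the control anther pair and 1.71 without the heated anther pair. Without the heated leaf pair the value was 1.95, and without the control leaf pair 2.76. The residual of the A2AS minus WT fit is how the effect varied over tissues and treatments. For the difference between tissues it is how the effect varied over treatments within each tissue. Neither is a spread between plants. Before variance was pooled over genes, the SE of HsfA2 was 0.75 for A2AS minus WT and 0.76 for its difference between tissues.

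Other genes that separated the genotypes were read in the heated anther pair, in a check chosen after the values were seen. In the 3 other pairs together, 5 genes were at least 2-fold higher in A2AS on the log2(CPM + 1) scale. In the heated anther pair all 5 again had a log2 difference of at least 1 towards A2AS (median 1.98), as 1.03% of the 26520 genes above 0 did. The 3 genes at least 2-fold lower in A2AS in the other pairs had lower values there as well, as 42.7% of all genes did, 1 of them by at least 2-fold (0.89% of all genes). These 3 had a median log2 ratio of −0.87. Read the same way in control leaf, 5 of 5 higher and 2 of 3 lower genes kept their direction. In heated leaf and in control anthers 5 of 6 higher genes did, and 1 was at least 2-fold opposite in each. Lower genes kept theirs in 1 of 1 case in heated leaf and 2 of 2 in control anthers. A gene at least 2-fold in 3 pairs and again in the pair read is 2-fold in every pair. The 5 higher genes that kept their direction were thus the same 5 genes in each reading. The 1 lower gene that kept its direction by at least 2-fold was also the same each time, so the readings are not separate checks. The cause of the HsfA2 level in heated anthers was not tested.

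The comparison of heat with control asks how HsfA2 responded to heat in each tissue and genotype. In anthers labelled A2AS it was 36.3-fold (22.1 to 63.9) higher after heat, and in WT anthers 11.5-fold (7.61 to 18.3) higher. In leaf it was 1.21-fold (0.629 to 2.26) higher in A2AS, an interval that includes 1, and 2.11-fold (1.70 to 2.63) higher in WT. The 4 pairs thus had the same direction, with both anther ratios above both leaf ratios. In anthers labelled A2AS 34 of 9484 other genes averaging 10 CPM or more had a larger log2 ratio than HsfA2 (0.358%), and in WT anthers 45 of 9287 did (0.485%). In A2AS leaf, where HsfA2 averaged 2.48 CPM, 28.3% of 8153 genes had a larger ratio, and in WT leaf 3.95% of 8832.

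**Figure D3:**
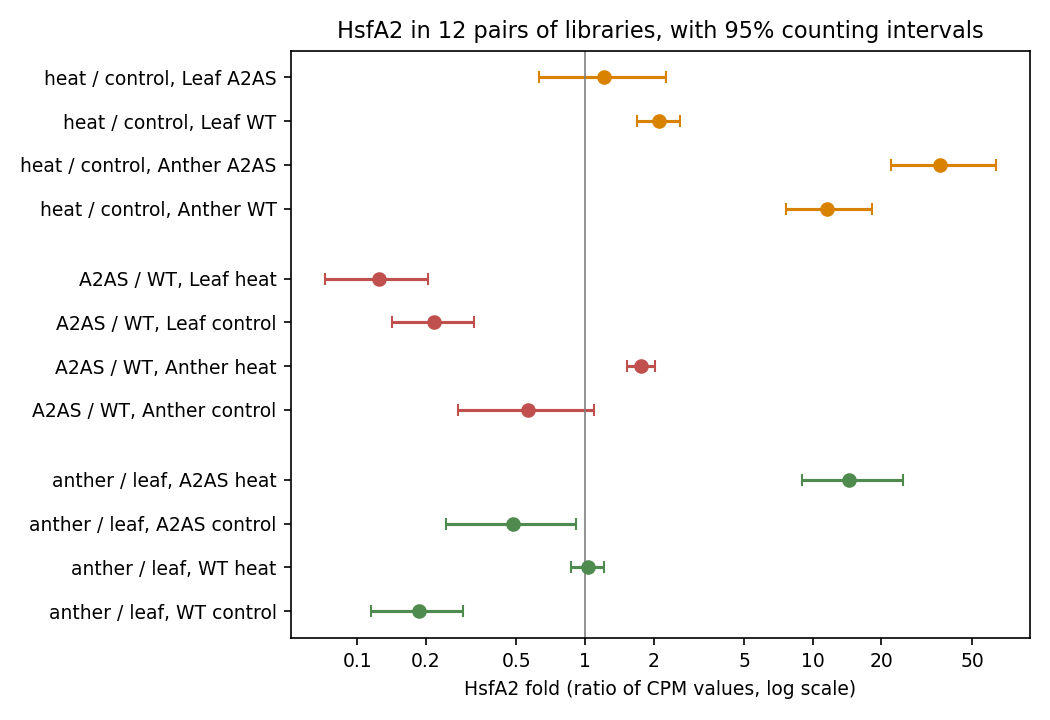
HsfA2 fold (log scale) in 12 pairs of libraries that differ in 1 factor, as the ratio of CPM values with its 95% exact counting interval. Orange points are heat over control, red points A2AS over WT and green points anther over leaf. The anther heat ratios (36.3 and 11.5) lie above the leaf heat ratios (1.21 and 2.11), and the A2AS ratio lies below 1 in leaf (0.125 and 0.218) and above 1 in heated anthers (1.76).

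Over the 4 pairs heat minus control was 2.12 ± 0.63 log2 (SE; limma adjusted p = 0.119), with higher values after heat in 4 of 4 pairs. The test did not call HsfA2, where it called 399 of 15220 genes (2.62%), 284 higher and 115 lower (206 and 262 under median-ratio scaling). The heat difference in anther exceeded that in leaf by 3.03 ± 0.48 log2 (limma adjusted p = 0.0553), just above the threshold that 145 genes (0.953%) passed. It passed under median-ratio scaling (2.98, limma adjusted p = 0.0411). It did not pass in the other 7 alternatives that kept all pairs, where the limma adjusted p was 0.0502 to 0.442. With 1 pair left out, a single pair of its tissue remained and was fitted exactly, so only effect sizes are given. These were 2.39 without the A2AS anther pair and 3.67 without the WT anther pair. Without the A2AS leaf pair the value was 2.63, and without the WT leaf pair 3.43. Before variance was pooled over genes, the SE of HsfA2 was 0.93 for heat and 0.76 for the heat difference between tissues. Within WT alone the heat ratio was 5.48 times as large in anther as in leaf (95% counting interval 3.44 to 8.73). That value does not use the library whose HsfA2 level goes against its label. It does use control WT leaf, which stood above the other 3 control libraries in some heat genes. Its small heat shock protein sum was 972 CPM against 153 to 194 CPM, and its HSP101 level 43.4 CPM against 9.35 to 31.1 CPM. MBF1c, a coactivator of the heat response, was at 65.5 CPM there against 5.88 CPM or less. HSP70 gene Solyc03g117630 was at 91.6 CPM against 9.21 to 19.2 CPM, and HSP90 gene Solyc06g036290 at 87.2 CPM against 10.4 to 74.3 CPM. The other HSP70 and HSP90 genes called higher after heat were lower there than in both control anther libraries. These genes were above control A2AS leaf: Solyc04g011440 (68.97 against 9.57 CPM), Solyc06g076020 (36.5 against 6.67 CPM) and Solyc03g007890 (34.6 against 3.84 CPM). The part of control WT leaf in the small WT leaf heat ratio was not tested.

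The heat response of HsfA2 was set between genotypes within each tissue. In leaf the A2AS heat ratio was 0.575 of the WT heat ratio (95% counting interval 0.307 to 1.08). In anthers the heat ratio of the libraries labelled A2AS was 3.14 times that of WT (1.65 to 6.01). Pooled over tissues the difference was 0.24 ± 1.40 log2 (SE; limma adjusted p = 1), and limma called 0 of 15220 genes (0%) with 228 at an unadjusted p under 0.05. Its sign changed with the pair left out: it was −1.80 without the A2AS anther pair and −0.75 without the WT leaf pair.

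In control plants HsfA2 was lower in anther than in leaf, while in heated WT plants the tissues did not differ beyond counting error. In control plants HsfA2 in anther was at 0.482 (0.246 to 0.909) of the leaf level in A2AS and 0.187 (0.116 to 0.292) in WT. The A2AS ratio rests on 16 and 31 reads. The WT ratio uses control WT leaf, where small heat shock protein genes summed to 972 CPM, against 153 CPM in control WT anthers. The part of that library in the WT ratio was not tested. In heated WT plants the ratio of anther to leaf was 1.03 (0.873 to 1.21). In heated plants labelled A2AS it was 14.4 (8.94 to 25.0). Scaled to 7 listed reference genes, these 2 heated ratios were 0.763 in WT and 8.42 in A2AS. Over the 4 pairs anther minus leaf was 0.22 ± 0.70 log2 (SE; limma adjusted p = 0.793), with a sign that turned without the heated A2AS pair (−0.85). Of 15220 genes 65.3% were called in this test.

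As the ratio of its highest to its lowest level, 36.3, HsfA2 had a wider range than any other Hsf gene that reached 10 CPM. Gene names follow published tomato nomenclature, since the tables list identifiers alone. HsfA1a (Solyc08g005170), the master regulator, lay between 17.1 and 27.2 CPM in all 8 libraries. HsfB1 (Solyc02g090820), a class B factor that lacks the activation motif of class A, lay between 17.7 and 47.6 CPM, and HsfA3 (Solyc09g009100) between 10.2 and 51.8 CPM. HsfB2a (Solyc03g026020) lay between 19.9 and 31.9 CPM, HsfA8 (Solyc09g059520) between 8.99 and 22.2 CPM, HsfA5 (Solyc12g098520) between 4.86 and 11.0 CPM and HsfA4a (Solyc03g006000) between 3.14 and 11.8 CPM. HsfB3a (Solyc04g016000) lay between 1.04 and 13.2 CPM, and its values were whole reads in 2 of 8 libraries. HsfA7 (Solyc09g065660) also had its highest values in heated anthers, at 12 CPM in the library labelled A2AS and 9.62 CPM in WT, and at 1.21 to 3.84 CPM in the other 6 libraries.

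HsfA2 made up 15.9% of the summed level of the 24 listed Hsf genes in the heated anther library labelled A2AS and 10.8% in heated WT anthers. In heated leaf the share was 1.66% in A2AS and 8.50% in WT. In control plants it was 1.57% in A2AS leaf and 5.08% in WT leaf, and 0.718% in A2AS anthers and 1.25% in WT anthers. In the heated anther library labelled A2AS only HsfB1, at 42.3 CPM, was above it among the 24 genes, while in both heated WT libraries it ranked 5 of 24. Of the 23 other Hsf genes 11 passed the expression minimum, and limma called 0 of them for heat (7 at an unadjusted p under 0.05), against 2.62% of all genes. Their median heat difference was 0.34 log2, against 0.06 for all genes. For A2AS it called 0 (1 at an unadjusted p under 0.05), with a median of −0.12 against −0.07 for all genes. The heat difference of HsfA7 between anther and leaf was 1.79 ± 0.28 log2 (limma adjusted p = 0.0553), and 0 of the 11 were called (3 at an unadjusted p under 0.05). Without the A2AS anther pair, which left a single anther pair, the HsfA7 value was again 1.79.

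**Figure D4:**
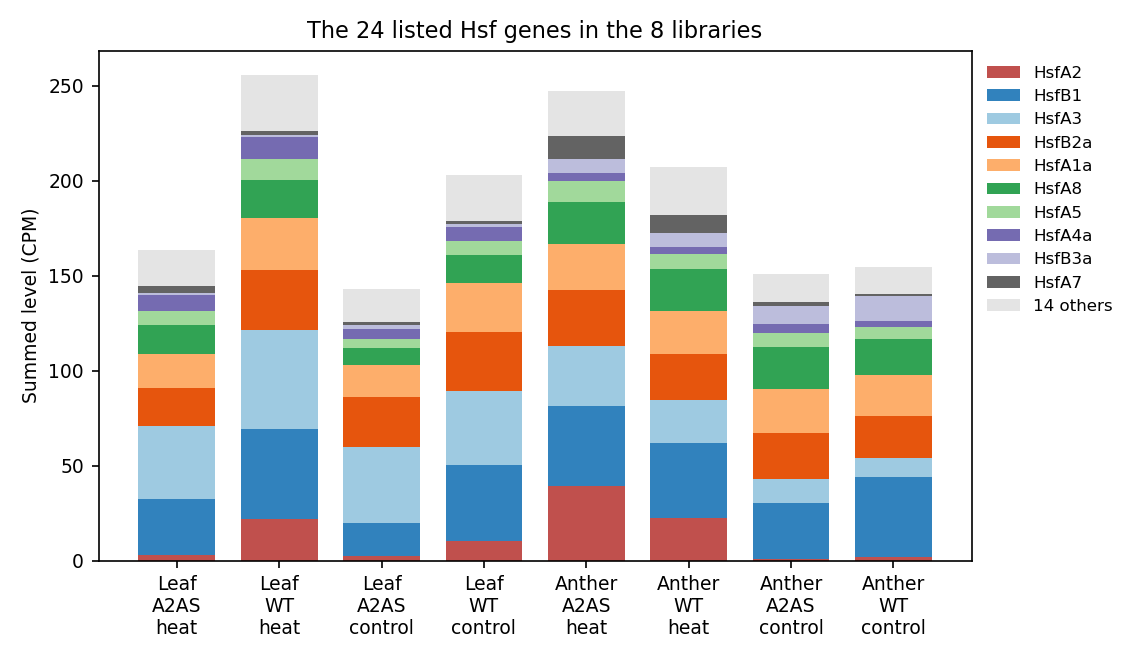
Summed level in CPM of the 24 listed Hsf genes in each library, stacked by gene, with HsfA2 in red at the base and 14 genes that stayed under 10 CPM in grey. The red part is largest in the heated anther library labelled A2AS (39.3 of 247 CPM) and small in both A2AS leaf libraries (2.72 of 164 CPM after heat and 2.25 of 143 CPM in control).

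Genes of chaperones that Hsf proteins activate were set beside HsfA2. In heated A2AS leaf the 12 listed small heat shock proteins, which bind unfolding proteins, summed to 5562 CPM at 2.72 CPM of HsfA2. In heated WT leaf they summed to 12859 CPM at 21.7 CPM of HsfA2. In control leaf they summed to 159 CPM in A2AS and 972 CPM in WT, at 2.25 and 10.3 CPM of HsfA2. In heated anthers the sum was 12618 CPM in the library labelled A2AS and 12682 CPM in WT, at 39.3 and 22.3 CPM of HsfA2. In control anthers it was 194 CPM in A2AS and 153 CPM in WT, at 1.08 and 1.93 CPM of HsfA2. Control WT leaf was thus the control library with the highest level of both, while both heated anther sums were alike at unequal HsfA2 levels.

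**Figure D5:**
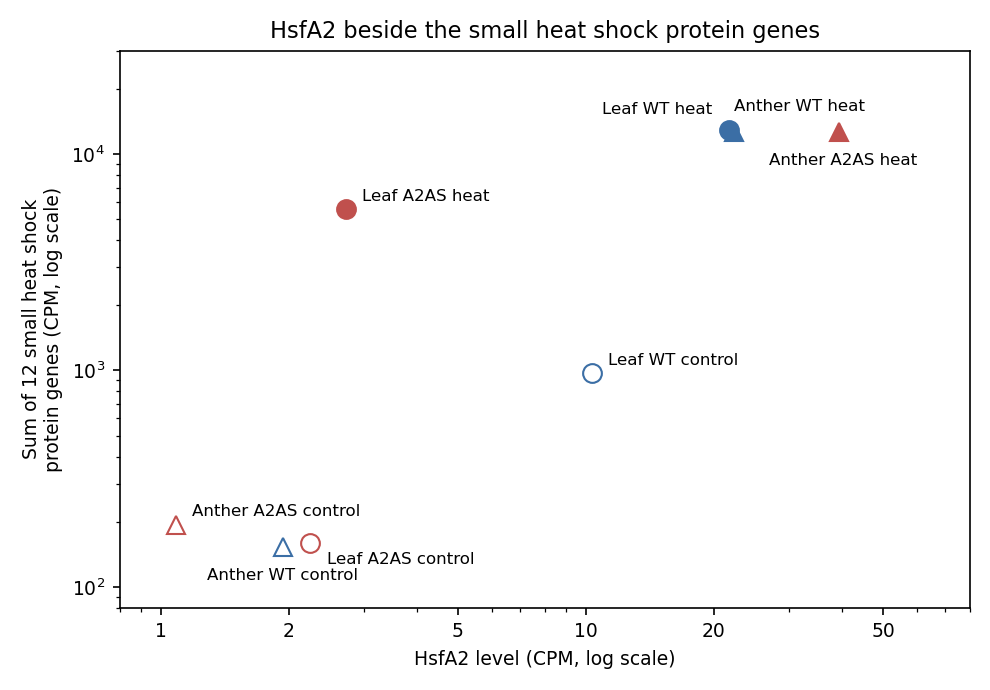
Summed level of 12 small heat shock protein genes against the HsfA2 level, both in CPM on log scales, 1 point per library. Circles are leaf, triangles anther, red A2AS, blue WT, filled symbols heat and open symbols control. Heated A2AS leaf lies at 5562 CPM with HsfA2 at 2.72 CPM, while control WT leaf lies at 972 CPM with HsfA2 at 10.3 CPM.

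The HsfA2 heat difference missed the threshold, whereas all 12 small heat shock proteins rose after heat by limma (median 5.12 log2, against 0.06 for all genes), among 1.87% of all genes called higher. The most abundant, Solyc03g082420, was at 741 CPM in heated A2AS leaf and 4221 CPM in heated WT leaf. The next, Solyc06g076520, was at 778 CPM in heated A2AS leaf and 1722 CPM in heated WT leaf. Of 8 HSP70 and BiP genes 3 were called higher and 1 lower (0.756% of all genes were called lower). Of 4 HSP90 genes 2 were called higher, and the disaggregase HSP101 (Solyc03g115230) rose by 3.24 ± 0.42 log2 (limma adjusted p = 0.0194). Without the A2AS anther pair limma called 8 of 12 small heat shock proteins and 1 of 4 HSP90 genes higher. Of 8 HSP70 and BiP genes it called 3 higher and 1 lower, where 97 of all genes were called higher and 19 lower. All 12 small heat shock proteins kept a positive heat difference in that fit, from 4.15 to 5.55 log2. For A2AS against WT limma called 0 members of these groups, 1 small heat shock protein having an unadjusted p under 0.05. In heated leaf 4 of 12 small heat shock proteins had a level in A2AS below that in WT by 2-fold or more on the log2(CPM + 1) scale, as did 6.51% of all genes averaging 10 CPM or more. In control leaf 11 of the 11 that averaged 10 CPM or more did, as did 2.76% of all such genes. That pair holds control WT leaf, the control library with the highest small heat shock protein sum.

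Chaperones were also compared between tissues by their signed genotype difference. The median log2 difference of A2AS minus WT over the small heat shock proteins was 0.03 in heated and 0.40 in control anthers, and −0.95 in heated and −2.45 in control leaf. For the signed value of A2AS minus WT, anther minus leaf, all called chaperones were positive. For this contrast limma called 2 of 12 small heat shock proteins, 4 of 8 HSP70 and BiP genes, HSP101 (1.90 ± 0.27 log2, adjusted p = 0.0417) and 0 of 4 HSP90 genes, each called gene in the direction that 2.01% of all genes took. Medians were 1.88 for the small heat shock proteins, 1.76 for HSP70 and BiP and 1.81 for HSP90, against 0.28 for all genes and 2.35 for HsfA2. Under median-ratio scaling 1 small heat shock protein and 3 HSP70 and BiP genes were called, among 112 genes called in that direction. Without the heated anther pair a single anther pair remained, so calls are not given for that fit. For the difference of the heat response between tissues 4 of 12 small heat shock proteins were called, where 0.361% of all genes were called in that direction. With all pairs, 11 of the 12 had the larger heat difference in anther. The other, Solyc05g014280, had the larger one in leaf (−2.87 log2, anther minus leaf). Without the A2AS anther pair, which left a single anther pair, its value was −3.48 log2.

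Genes with a profile like that of HsfA2 were ranked by Pearson's r of log2(CPM + 1) over the 8 libraries, which share tissues, genotypes and treatments. Only genes that averaged 2 CPM or more and reached 10 CPM in some library were ranked. Of 11636 such genes, 73 had an r of at least 0.9 (0.627%), and the median r was 0.13. The highest were Solyc08g005900 (r = 0.981) and Solyc01g006680 (r = 0.970), which the files do not name. Both had a narrow range, Solyc08g005900 between 9.55 and 20.9 CPM and Solyc01g006680 between 9.18 and 21.7 CPM. The lowest were Solyc04g017720 (r = −0.895), between 13.8 and 38.3 CPM, and Solyc12g056600 (r = −0.889), between 4.74 and 24.3 CPM.

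Of the listed genes that met these minimums, the most alike was MBF1c (Solyc01g104740), a transcriptional coactivator of the heat response, at r = 0.943 (0.916 to 0.986 when any 1 library was left out). It was at 246 CPM in the heated anther library labelled A2AS and 92.7 CPM in heated WT anthers, and at 4.4 and 5.88 CPM in A2AS and WT control anthers. In leaf it was at 13.0 CPM in heated A2AS and 32.0 CPM in heated WT, and at 5.44 CPM in control A2AS and 65.5 CPM in control WT. MBF1c was thus highest in the same library as HsfA2, but in WT leaf it was lower after heat than in control, while HsfA2 was higher. The next 4 were the small heat shock protein Solyc09g015020 (r = 0.895), the HSP70 gene Solyc03g117630 (r = 0.883), the small heat shock protein Solyc08g062340 (r = 0.882) and HSP101 (r = 0.870). Of the other Hsf genes that met them, the closest was HsfA5 (r = 0.775), followed by HsfA7 (r = 0.691).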

How the data were processed

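Values were deposited by the authors as CPM (tags per 1000000, which the authors labelled TPM), 1 table per library. Per the labels' protocols, poly(A) RNA was bound and the last 500 bp were sequenced. FastQC is named in the submitters' processing notes. Aligner, counting, strand use and build: not given in the sources used here. In each library 77.6% to 83.9% of values above 0 were whole multiples (within 0.001) of 1 step, and 69.5% to 74.8% of the others lay at multiples of 1/2 to 1/6 of it. The share of whole values was too low to run a count model. 1000000 over the step gave the library size, and no pair of libraries shared an identical value above 0.

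Ratios are of CPM values, with exact Clopper-Pearson intervals (95%) from reads for pairs, exact Poisson intervals for levels and normal intervals on the log scale for ratios of ratios. They cover counting error only. limma 3.58.1 (R 4.3.3) was run on log2(CPM + 1) for the 15220 genes averaging 2 CPM or more, with a variance trend, pairs sharing both other factors as a block, and Benjamini-Hochberg adjustment at 0.05. It was also run on simulated data with independent noise in each library and no effects that varied between pairs. That run does not give the error rate of the fits reported here.

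The gene, the lists (66 identifiers, 66 found) and the tests were chosen with earlier results of these data known. Names follow published nomenclature, as 0 of 41476 rows of the RefSeq gene table held such an identifier. Named genes were HsfA2, other Hsf genes reaching 10 CPM, the 2 most abundant members of the other lists (the report gives those its comparisons use), the 2 unlisted genes with the highest and the lowest correlation, and the 5 most alike listed genes. HsfA5, HsfA7 and Solyc05g014280 were followed further after their values were seen. Alternatives were the pseudocount, scaling, expression minimum, model terms and each pair left out.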

Additional observations from a re-analysis of the deposited data

Results flagged for a closer look

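The ratio of HsfA2 in A2AS to WT went in opposite directions in the tissues of heated plants, at 1.76 in anthers and 0.125 in leaf. With 1 library in each group this difference within heated plants was not tested against a spread between plants. The anther ratio was 14.1 times the leaf ratio, with a 95% counting interval of 8.46 to 23.4. In control plants the corresponding ratios were 0.560 in anthers and 0.218 in leaf, and the anther ratio was 2.57 times the leaf ratio (1.22 to 5.43).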

How the results depend on the processing

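No paired analysis by replicate number was possible because each group has 1 library, and the pairs used share tissue, genotype or treatment. HsfA2 kept its direction and kept an adjusted p above 0.05 in all 12 alternatives for heat (1.40 to 2.76 with pairs left out) and for A2AS (−1.63 to −0.50 with pairs left out). Anther minus leaf turned to −0.00204 under median-ratio scaling and ranged from −0.85 to 0.94 with pairs left out. The heat difference between genotypes ranged from −1.80 to 2.28 with pairs left out. The heat difference between tissues was 2.98 and passed under median-ratio scaling, and ranged from 2.39 to 3.67 with pairs left out. The signed genotype difference, anther minus leaf, ranged from 1.71 to 3.0 with pairs left out. The cause was not tested.

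Counts of called genes moved more. For heat they were 255 with a pseudocount of 5, 51 with no minimum, 198 with additive terms, 241 with no variance trend and 57 to 131 with pairs left out. For anther against leaf they were 6382 at a mean of at least 10 CPM (fewer genes tested) and 8290 to 9478 with pairs left out. For heat between tissues they were 0 with no minimum, 2 with additive terms, 20 with no trend and 0 to 608 with pairs left out. For genotype between tissues they were 168 with a pseudocount of 5, 853 at a mean of at least 10 CPM, 0 with no minimum, with additive terms or with no trend, and 0 to 957 with pairs left out. Median-ratio scaling changed the split of calls: 206 higher and 262 lower for heat (284 and 115 as reported), 4859 and 4740 for anther against leaf (6335 and 3597), and 112 and 462 for genotype between tissues (306 and 158).

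Scaled to the reference genes, the anther to leaf ratio of HsfA2 was 8.42 in heated plants labelled A2AS and 0.763 in heated WT, and no other of the 12 ratios left its counting interval under any of 3 scalings. With a minimum pair average of 2 CPM in place of 10, the share of genes above HsfA2 was 0.227% for heat in A2AS anthers, 0.316% for heat in WT anthers and 1.94% for A2AS in heated anthers. Genes with an r of at least 0.9 numbered 56 to 189 with 1 library left out. Median-ratio scaling left 1 small heat shock protein called for genotype between tissues. Without the pair holding the heated anther library labelled A2AS (chosen after the data were seen), 1 HSP90 gene was called for heat. Depth limits HsfA2 most in heated A2AS leaf, where 3 reads are 0.480 CPM.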
